A study of Mus musculus with 12 samples.

Results

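The 8 genes described here encode neuropeptide precursors that POMC neurons of the arcuate nucleus can make beside proopiomelanocortin: Cartpt, Gal, Pdyn, Penk, Pnoc, Tac1, Adcyap1 and Cck. They were taken by name from a count table of 19878 mouse genes, with no threshold on a measured value, although results of these data were known when the names were chosen, and all 8 passed the filter on low counts in every comparison. Ribosomes were captured from C57BL/6 mice carrying Pomc-CreER; ROSA26eGFP-L10a, in which tamoxifen lets Cre, expressed from Pomc regulatory sequences, switch on a ribosomal protein tagged with GFP. RNA on the tagged ribosomes is the pull-down and RNA left in the same lysate is the supernatant. The 12 libraries form 4 groups of 3: the pull-down and the supernatant of mice aged 60 days after birth (P60), and the same fractions of mice aged 12 days (P12). All animals carried both alleles, and at both ages tamoxifen was injected on several days that ended before the tissue was taken. By the injection days that the study gives, the gap from the last injection was shorter at P12 than at P60. Age and the length of this gap therefore cannot be told apart in comparisons between the ages. The labels name the tissue as hypothalamus, and the arcuate nucleus was cut from thick coronal slices, so the supernatant holds RNA of every cell type in the slice piece and of cells without the tag. Cells that used Pomc only before tamoxifen are not marked, and how many mice went into a sample is not given in the sources used here.

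Neuropeptides are made as long precursors that enter the secretory pathway, are cut at pairs of basic residues by prohormone convertases, trimmed, often amidated, and stored in dense-core granules. One precursor can yield several active peptides. In the arcuate nucleus, POMC neurons are best known for melanocortin peptides that restrain food intake, and many of them also make CART peptides from Cartpt, which act in the same direction on feeding. The other precursors of the set are shared with many hypothalamic neurons: Gal encodes galanin, Pdyn the dynorphins, Penk the enkephalins, Pnoc nociceptin, Tac1 substance P and neurokinin A, Adcyap1 the peptide PACAP, and Cck cholecystokinin. In bulk RNA of this kind, fewer cells that express a gene and less RNA of it per cell cannot be told apart, and expression in the same cell cannot be read.

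In the GRCm38.p6 assembly, the positions of the genes were chr13:99898483-99910179 for Cartpt, chr19:3409915-3414544 for Gal, chr2:129686549-129699938 for Pdyn and chr4:4133536-4138815 for Penk. Pnoc lies at chr14:65400673-65425564, Tac1 at chr6:7555061-7562978, Adcyap1 at chr17:93198245-93206541 and Cck at chr9:121489824-121495694. The exonic lengths of 7 of the 8 were below the median of 3740 bases over all genes with a length: 788 bases for Gal, 1277 for Cartpt, 1305 for Cck, 1634 for Penk, 2157 for Pnoc, 2887 for Pdyn and 3399 for Tac1. Adcyap1, at 3777 bases, was just above it.

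Promoter windows from RefSeq were found for 6 of the 8 genes by symbol, and not for Penk and Pnoc. The 250 bases before the start site are printed for the 3 genes whose mRNA was higher in the P60 pull-down than in the P60 supernatant, since the results turn on them. All 3 lie on the minus strand and read 5′ to 3′ toward the start that the table uses, which for Cartpt lies inside the gene's interval. Capitals mark 3 motifs on either strand: TGACG as part of the cAMP response element, TATAAA as a TATA box, and CCAAT as the box of that name.
Cartpt, chr13:99900684-99900933: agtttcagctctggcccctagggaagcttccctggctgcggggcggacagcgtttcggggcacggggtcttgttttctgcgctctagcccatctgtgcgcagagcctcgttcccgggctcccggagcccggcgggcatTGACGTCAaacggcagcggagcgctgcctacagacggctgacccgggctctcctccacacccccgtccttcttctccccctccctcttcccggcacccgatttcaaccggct
Gal, chr19:3414545-3414794: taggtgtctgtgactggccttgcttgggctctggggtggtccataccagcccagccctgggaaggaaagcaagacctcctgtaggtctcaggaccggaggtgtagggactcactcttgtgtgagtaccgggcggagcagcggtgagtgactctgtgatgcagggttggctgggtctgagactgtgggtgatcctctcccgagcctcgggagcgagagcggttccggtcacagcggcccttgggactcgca
Pdyn, chr2:129699939-129700188: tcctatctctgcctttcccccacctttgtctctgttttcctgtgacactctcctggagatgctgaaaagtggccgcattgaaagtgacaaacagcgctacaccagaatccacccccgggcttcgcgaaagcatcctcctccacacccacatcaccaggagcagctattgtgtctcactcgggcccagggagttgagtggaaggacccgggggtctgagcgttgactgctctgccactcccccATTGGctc

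The Cartpt window held TGACGTCA, the palindrome known as the full cAMP response element, beginning 112 bases before the start, and TGACGTCA contains TGACG on both strands. Across 32851 promoter windows of the same length, 1.55% held TGACGTCA and 17.8% held TGACG. RefSeq gave 2 windows for Pdyn, of which the upstream one is printed. That window held CCAAT on the reverse strand, beginning 8 bases before the start, a motif present in 33.8% of all windows. The other Pdyn window, chr2:129698659-129698908, also held CCAAT on the reverse strand, beginning 102 bases before its start. No capitals occur in the Gal window, which says only that these letters are not in these bases. TGACG also occurred in the windows of Tac1, Cck and Adcyap1, genes that were not higher in the pull-down at either age. TATAAA was in 12.4% of all windows, and among the 6 genes in a window of Adcyap1 only. Further motifs searched on both strands were TGANTCA, found in 6.75% of all windows and in none of the 6 genes, CANNTG, found in 66.2%, and TTCNNNGAA, found in 7.02% and among the 6 genes in the window of Pdyn that is not printed.

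Library totals were 10791980 to 18774445 counts in the P60 pull-downs, 16143825 to 22422476 in the P60 supernatants, 6305778 to 19814679 in the P12 pull-downs and 23785154 to 35249290 in the P12 supernatants. Levels are given as counts per 1000000 counts of the library (CPM). Pomc and the GFP tag were called higher in the pull-down at both ages, Pomc by 124-fold at P60 and by 4.03-fold at P12. In the P12 pull-downs, Pomc was at 9.83, 21.9 and 81.7 CPM, and without replicate 3 its log2 fold change was 1.26 with an adjusted p of 0.606. The P12 call of Pomc was also lost with no replicate block, at an adjusted p of 0.0702, and with library size alone as the scaling, at 0.0577. The P12 call of GFP was lost without replicate 3 and with library size alone. A list of 6 genes known from POMC neurons (Pomc, Prdm12, Tbx3, Isl1, Nkx2-1, Six6) summed to 2812 to 4831 CPM in the P60 pull-downs, against 113 to 163 CPM in the P60 supernatants. At P12 the list summed to 81.7 to 203 CPM in the P12 pull-downs, against 126 to 154 CPM in the P12 supernatants. Of these 6 genes, 4 were called higher in the pull-down at P60 and 1, Pomc itself, at P12. The P12 pull-downs thus overlapped the P12 supernatants in this list, and the part of this in the P12 values of the peptide genes was not tested.

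At P60, Cartpt, Gal and Pdyn were higher in the pull-down than in the supernatant, by 24.0-fold, 6.00-fold and 4.73-fold. Cck and Penk were lower, and Pnoc, Tac1 and Adcyap1 were not called. The set did not behave as one group, and for 5 of its 8 genes the adult pull-down showed no enrichment over the supernatant. Of all 14444 genes tested at P60, 7.11% were called higher and 4.53% lower, against 3 higher and 2 lower of the 8. With library size alone as the scaling, 614 genes were called higher and 1790 lower at P60, in place of 1027 and 655, and the same 5 peptide genes were called in the same directions. The median log2 fold change of the 8 was -0.36, beside -0.10 over all genes tested.

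Cartpt had 1047, 881 and 1002 CPM in the P60 pull-downs, against 47.3, 38.0 and 59.5 CPM in the P60 supernatants. All 3 pull-downs stood far above all 3 supernatants, and within the pairs the log2 ratio lay between 4.07 and 4.54. The fitted log2 fold change was 4.58 ± 0.16 (SE, n = 3 pairs, edgeR adjusted p = 5.5e-23). The pull-down values averaged 977 ± 86.0 CPM (SD, n = 3), and their coefficient of variation of 8.81% was the lowest of the 8 genes in that group.

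Gal, which encodes galanin, had 115, 87.8 and 103 CPM in the P60 pull-downs, against 18.5, 18.2 and 22.6 CPM in the P60 supernatants. The groups did not overlap, and every pair gave a log2 ratio of 2.18 to 2.63. Its fitted log2 fold change was 2.59 ± 0.19 (SE, edgeR adjusted p = 3.1e-13).

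Pdyn, whose dynorphins act mainly on the kappa opioid receptor, had 32.1, 27.2 and 11.7 CPM in the P60 pull-downs, against 5.39, 5.53 and 5.33 CPM in the P60 supernatants. Its lowest pull-down was still above every supernatant, yet the 3 pull-downs differed among themselves by 2.75-fold while the supernatants differed by 1.04-fold. The fitted log2 fold change was 2.24 ± 0.36 (SE, edgeR adjusted p = 1.82e-05), and in the fit over all 12 libraries the adjusted p was 0.0502. KNDY neurons also make dynorphin, and their markers Kiss1, Tac2, Tacr3 and Esr1 had a summed level of 24.6 to 27.4 CPM in the P60 pull-downs, against 31.0 to 37.8 CPM in the P60 supernatants. Kiss1, at means of 0.0888 CPM in the P60 pull-downs and 0.243 CPM in the P60 supernatants, added almost nothing to these sums and was not tested. Of the 3 markers tested, Tacr3 was called lower in the pull-down. That call was lost without replicate 2 or replicate 3, and in the fit over all 12 libraries. Tac2 and Esr1 had log2 fold changes of -0.55 and 0.63 and were not called. Called higher were 0 by edgeR, at an unadjusted p under 0.05 or by DESeq2. The part of KNDY neurons in the Pdyn values was not tested.

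Cck had 25.5, 6.66 and 9.73 CPM in the P60 pull-downs, against 30.2, 31.1 and 30.5 CPM in the P60 supernatants. All supernatants lay above all pull-downs, and replicate 1 of the pull-down came close to them. The fitted log2 fold change was -1.14 ± 0.32 (SE, edgeR adjusted p = 0.0128). The adjusted p was 0.205 without replicate 2, 0.101 without replicate 3 and 0.166 with no replicate block.

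Penk had 25.7, 32.5 and 17.7 CPM in the P60 pull-downs, against 44.5, 48.1 and 47.7 CPM in the P60 supernatants. The groups did not overlap, and the fitted log2 fold change was -0.70 ± 0.24 (SE, edgeR adjusted p = 0.0459). This call sits at the edge of the threshold, since DESeq2 gave an adjusted p of 0.0765 and leaving out replicate 3 gave a log2 fold change of -0.46 with an adjusted p of 0.467. Without replicate 1 the adjusted p was 0.0735, with a correction for gene length it was 0.0732, and with no replicate block it was 0.124.

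The remaining genes overlapped between the fractions or nearly so at P60. Pnoc had 15.3, 8.04 and 4.08 CPM in the P60 pull-downs and 13.3, 14.1 and 11.5 CPM in the P60 supernatants. Tac1 had 14.4, 24.3 and 9.82 CPM in the P60 pull-downs and 26.7, 21.5 and 25.9 CPM in the P60 supernatants. Adcyap1, at 42.8, 21.5 and 42.1 CPM in the P60 pull-downs and 50.5, 45.4 and 45.4 CPM in the P60 supernatants, kept its groups apart by a narrow margin. Their log2 fold changes were -0.46 ± 0.42, -0.47 ± 0.32 and -0.25 ± 0.22 (SE), with edgeR adjusted p of 0.571, 0.403 and 0.556. These intervals leave room for a moderate difference, so that the misses do not show equal levels. Without replicate 2 the log2 fold change of Adcyap1 was 0.0073, a value that was not called.

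**Figure D1:**
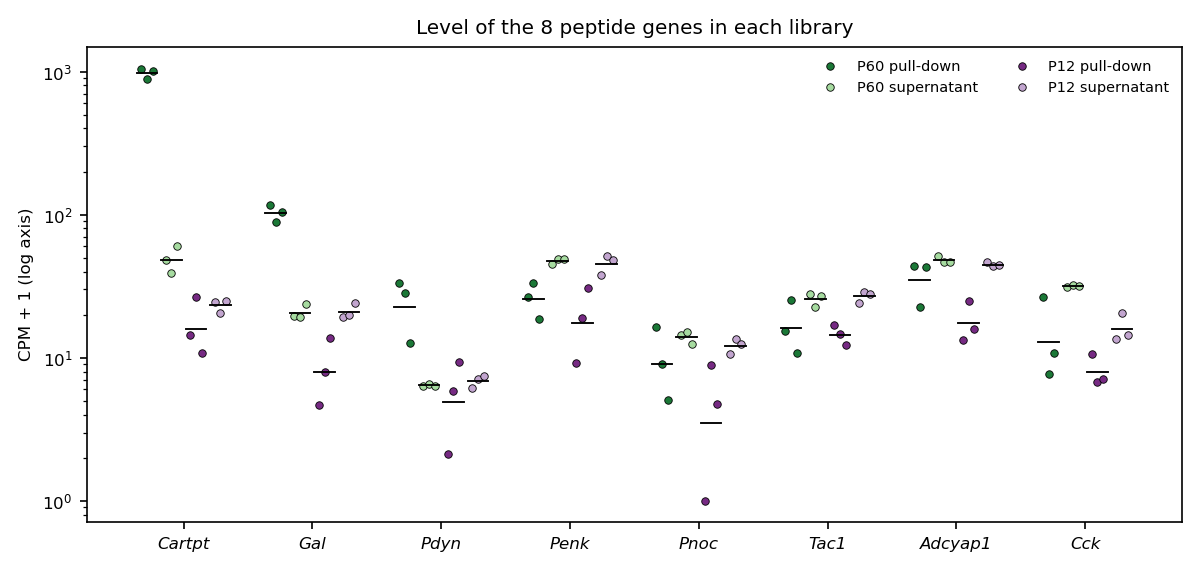
Level of each of the 8 genes in each library, as CPM plus 1 on a log axis. Points are the 3 libraries of a group and the bar is the mean of the logged values. Cartpt, Gal and Pdyn stand apart in the P60 pull-down, with Cartpt at 881 to 1047 CPM, and Pnoc has 1 P12 pull-down at 0 counts.

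Replicate 3 of the P60 pull-down held the lowest value of its group for Pdyn, Penk, Pnoc and Tac1, and the highest for Pomc, at 4510 CPM beside 3077 and 2530 CPM. Cartpt and Gal did not follow that order, with replicate 2 lowest for both. At P60, supernatant libraries lay closer together than pull-downs for 7 of the 8 genes, the exception being Cartpt, whose coefficient of variation was 8.81% in the pull-downs and 22.4% in the supernatants. Across the 8 genes the coefficient of variation spanned 8.81% to 72.5% among P60 pull-downs, against 1.56% to 22.4% among P60 supernatants. Genes of other cells moved with the fraction at P60, in both directions. The 4 oligodendrocyte genes Mbp, Mobp, Mog and Mal were all called lower in the pull-down, with a summed level of 463 to 563 CPM there and 1084 to 1107 CPM in the P60 supernatants, and none was at 0. Of the 4 astrocyte genes, Aqp4 and Gja1 were called lower, by log2 fold changes of -0.84 and -1.05, and the list summed to 201 to 252 CPM in the P60 pull-downs, against 294 to 325 CPM in the P60 supernatants. Others were called higher: Vim of the 4 tanycyte and ependymal genes, at a log2 fold change of 0.98 beside a list median of -0.86, Flt1 of the 3 endothelial genes, at 2.36 beside -0.54, and Serpina3n of the 4 genes of AGRP neurons, at 2.26 beside -0.81. Otp of the AGRP list was called lower, at -1.33, and Agrp and Npy, at -1.05 and -0.57, were not called. The tanycyte and ependymal list summed to 72.8 to 85.2 CPM in the P60 pull-downs, against 57.0 to 64.5 CPM in the P60 supernatants. The endothelial list summed to 10.3 to 18.7 CPM in the P60 pull-downs, against 4.15 to 7.62 CPM in the P60 supernatants, and the AGRP list to 83.5 to 152 CPM in the P60 pull-downs, against 71.2 to 73.5 CPM in the P60 supernatants. The calls of Gja1, Vim, Flt1 and Otp were lost without replicate 3, and that of Aqp4 without replicate 2. In the fit over all 12 libraries, the calls of Mog, Mal, Aqp4 and Flt1 were lost. A list of 3 genes of ventromedial neurons (Nr5a1, Fezf1, Sox14) had a summed level of 10.7 to 23.6 CPM in the P60 pull-downs, against 27.7 to 36.8 CPM in the P60 supernatants, with 0 of 3 called by edgeR, 0 by DESeq2 and 1 lower at an unadjusted p under 0.05. The study also reports Sox14 and Nr5a1 in clusters of developing Pomc-expressing cells, so neither gene marks ventromedial neurons alone. The part of these lists in the values of the 8 peptide genes at P60 was not tested.

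**Figure D2:**
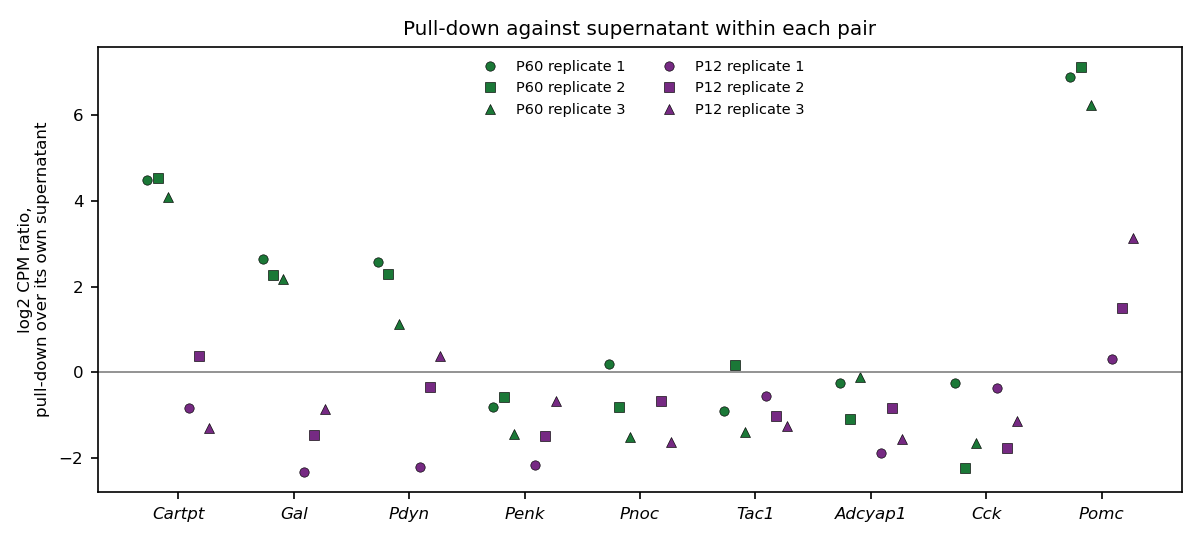
Log2 ratio of CPM in the pull-down over its own supernatant for each pair and gene, with Pomc for comparison. Marker shape gives the replicate number and colour the age; the P12 pair with Pnoc at 0 counts has no point. At P60, Cartpt lies between 4.07 and 4.54 in the 3 pairs, and at P12 its pairs fall on both sides of 0.

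At P12, none of the 8 genes was called in either direction by edgeR, and none by DESeq2, whereas 2 of them, Penk and Adcyap1, were lower at an unadjusted p under 0.05. Of all 14852 genes tested at P12, 8.23% were called, 6.28% higher and 1.95% lower. These were 933 and 289 genes, and with library size alone as the scaling 534 and 1390. All 8 fitted log2 fold changes were below 0, with a median of -0.90, beside -0.27 over all genes tested, but those of Cartpt, Pdyn and Cck changed sign with a correction for gene length. Cartpt had 13.3, 25.5 and 9.79 CPM in the P12 pull-downs, against 23.5, 19.5 and 24.0 CPM in the P12 supernatants. These groups overlapped, and the log2 fold change was -0.23 ± 0.51 (SE, edgeR adjusted p = 0.85). Gal had 3.65, 6.89 and 12.8 CPM in the P12 pull-downs, against 18.2, 18.9 and 23.0 CPM in the P12 supernatants. Every pull-down was below every supernatant for Gal, with a log2 fold change of -1.17 ± 0.62 (SE, edgeR adjusted p = 0.338), which was -0.12 with the correction for gene length. Pdyn had 1.11, 4.89 and 8.33 CPM in the P12 pull-downs, against 5.13, 6.15 and 6.44 CPM in the P12 supernatants, and the lowest of these values rests on 7 counts.

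Penk, at 8.25, 18.0 and 29.9 CPM in the P12 pull-downs and 36.7, 50.1 and 47.2 CPM in the P12 supernatants, had a log2 fold change of -1.06 ± 0.39 (SE, edgeR adjusted p = 0.132), which was -0.36 with the length correction. For Adcyap1 the values were 12.4, 23.9 and 14.8 CPM in the P12 pull-downs and 45.3, 42.5 and 43.6 CPM in the P12 supernatants, with a log2 fold change of -1.07 ± 0.39 (SE, edgeR adjusted p = 0.12). Both genes kept their fractions apart. With library size alone as the scaling, both were called lower, and in a fit over all 12 libraries Gal was called lower too. Pnoc had 0, 7.89 and 3.73 CPM in the P12 pull-downs, against 9.54, 12.5 and 11.4 CPM in the P12 supernatants. The 0 stood in the shallowest library, of 6305778 counts, where a count of 0 allows up to 0.476 CPM (3 counts, counting error only). Tac1 had 15.9, 13.6 and 11.3 CPM in the P12 pull-downs and 23.1, 27.7 and 26.9 CPM in the P12 supernatants, and Cck had 9.67, 5.78 and 6.06 CPM in the P12 pull-downs and 12.5, 19.5 and 13.4 CPM in the P12 supernatants. Both genes were lower in every pair, yet their log2 fold changes of -0.60 ± 0.47 and -0.74 ± 0.70 (SE) had edgeR adjusted p of 0.566 and 0.638.

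Glial genes also moved with the fraction at P12. Of the 4 oligodendrocyte genes, Mobp was called lower in the pull-down, a call lost without replicate 3 and with the length correction. Mbp had a log2 fold change of 0.44 in the other direction, with an edgeR adjusted p of 0.0501, and DESeq2 called 1 of the 4 higher and 2 lower. The 4 summed to 533 to 770.1 CPM in the P12 pull-downs and 647 to 743 CPM in the P12 supernatants. Of 4 astrocyte genes, Gfap was called higher in the pull-down, at a log2 fold change of 1.48, while Aqp4, Gja1 and Slc1a3 were at -0.64, -0.50 and -0.21 and not called, with a list median of -0.35. The 4 summed to 394 to 575 CPM in the P12 pull-downs and 310 to 362 CPM in the P12 supernatants. Of 4 tanycyte and ependymal genes, Vim was called higher, at 1.58 beside a list median of 0.35, and the list summed to 111 to 145 CPM in the P12 pull-downs, against 68.7 to 72.0 CPM in the P12 supernatants. No gene of these lists was at 0 in all libraries of a group. Their part in the values of the 8 peptide genes at P12 was not tested.

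**Figure D3:**
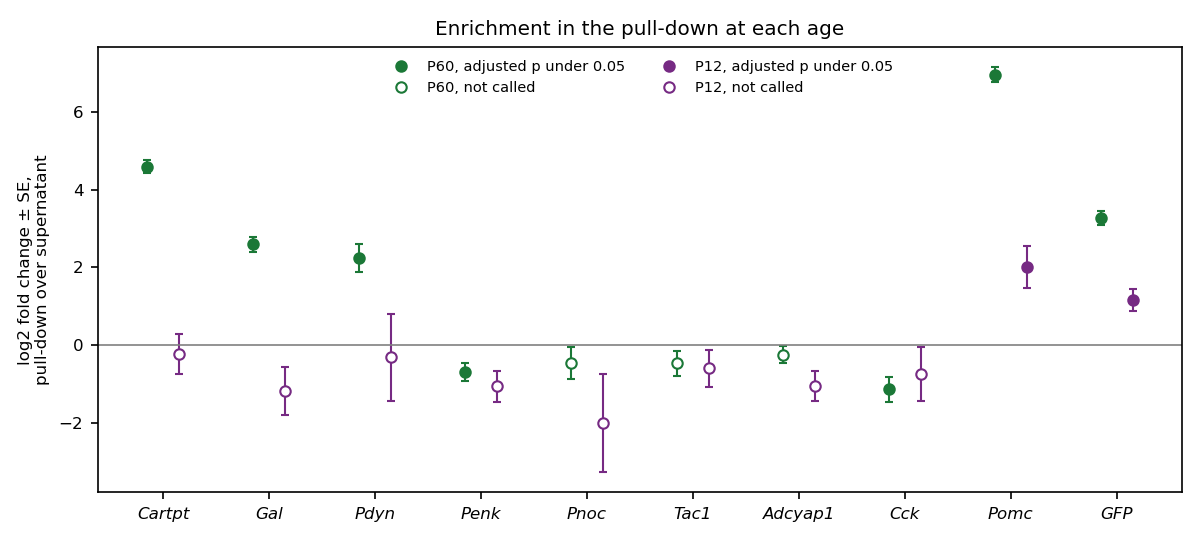
Fitted log2 fold change of the pull-down over the supernatant, with its SE, for the 8 genes, Pomc and GFP at P60 (left of each pair) and P12. Filled points have an edgeR adjusted p under 0.05. Cartpt, Gal and Pdyn were called higher at P60, at 4.58, 2.59 and 2.24, and no gene of the 8 was called at P12.

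The enrichment at P60 was set against that at P12 with an interaction contrast over all 12 libraries. Cartpt and Gal passed, the difference of log2 enrichment being 4.75 ± 0.32 for Cartpt and 3.69 ± 0.43 for Gal (SE, edgeR adjusted p = 6.06e-09 and 2.56e-05). Across all 15311 genes tested, 1.12% were called, 0.438% in this direction and 0.686% in the other. Pdyn had a difference of 2.46 ± 0.93 (SE), with an edgeR adjusted p of 0.285, so its enrichment was not shown to differ between the ages. For the other 5 genes the difference lay between -0.44 for Cck and 1.37 for Pnoc, and 0 of the 5 passed with edgeR, with DESeq2 or at an unadjusted p under 0.05. By comparison, Pomc gave 4.80 and GFP 2.08, both called. Prdm12 and Tbx3 of the POMC list were called higher as well, at 6.40 and 2.36. Isl1, Nkx2-1 and Six6, at 0.26, 0.54 and 2.23, were not called. Among the markers of other cell types, Gfap and Mbp were called lower in this contrast, at -1.51 and -1.33, and Serpina3n higher, at 2.68, a call lost without P60 replicate 1 or P60 replicate 3. The part of these in the differences for Cartpt and Gal was not tested.

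Between the ages, the pull-downs carried more Cartpt and Gal at P60. Cartpt averaged 977 ± 86.0 CPM in the P60 pull-downs and 16.2 ± 8.24 CPM in the P12 pull-downs (SD, n = 3 each), a log2 fold change of 5.73 ± 0.33 (SE, edgeR adjusted p = 8.57e-08). Gal averaged 102 ± 13.6 CPM in the P60 pull-downs and 7.78 ± 4.65 CPM in the P12 pull-downs (SD, n = 3 each), a log2 fold change of 3.48 ± 0.41 (SE, edgeR adjusted p = 0.000177). These were 2 of the 8 genes, beside 1.89% of 13570 genes called higher and 3.11% called lower. Pdyn had a log2 fold change of 2.08 ± 0.73 (SE) with an edgeR adjusted p of 0.121, and DESeq2 called it at 0.0478. The pull-downs of the 2 ages did not overlap for Pdyn, at 11.7 to 32.1 CPM in P60 and 1.11 to 8.33 CPM in P12. The remaining 5 genes had log2 fold changes of 0.11 to 0.99, 0 of 5 called by edgeR, by DESeq2 or at an unadjusted p under 0.05, beside a median of 0.0061 over all genes. Pomc itself, by the same measure, was 77.2-fold higher in the P60 pull-downs. Markers of other cells differed between the same libraries. Gfap, Vim, Mbp and Otp were called lower in the P60 pull-downs, at log2 fold changes of -1.42, -0.88, -1.01 and -1.99, and Mal and Serpina3n higher, at 3.37 and 2.93. Agrp and Npy of the AGRP list were at -0.81 and -0.35 and were not called. The calls of Gfap and Serpina3n held under every alternative run, that of Mbp was lost without P60 replicate 3, and those of Vim, Otp and Mal were each lost in at least 3 of the fits with a library left out. The astrocyte list summed to 201 to 252 CPM in the P60 pull-downs and 394 to 575 CPM in the P12 pull-downs, and the oligodendrocyte list to 463 to 563 CPM in the P60 pull-downs and 533 to 770.1 CPM in the P12 pull-downs. For the tanycyte and ependymal list the sums were 72.8 to 85.2 CPM in the P60 pull-downs and 111 to 145 CPM in the P12 pull-downs, and for the AGRP list 83.5 to 152 CPM in the P60 pull-downs and 48.1 to 94.0 CPM in the P12 pull-downs. Their part in the values of Cartpt and Gal was not tested.

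Between the supernatants of the ages, Cartpt and Cck were called. Cartpt was 2.09-fold higher in the P60 supernatants, at 38.0 to 59.5 CPM, than in the P12 supernatants, at 19.5 to 24.0 CPM (log2 fold change 1.06 ± 0.12 SE, edgeR adjusted p = 2.24e-08). Cck was 1.95-fold higher, at 30.2 to 31.1 CPM in the P60 supernatants and 12.5 to 19.5 CPM in the P12 supernatants (log2 fold change 0.97 ± 0.13 SE, edgeR adjusted p = 6.34e-07). In the fit over all 12 libraries the Cck call was lost, with an adjusted p of 0.318. Among all 15251 genes tested in the supernatants 20.9% were called higher, so 2 of 8 is near that background. Gal, Pdyn, Penk, Pnoc, Tac1 and Adcyap1 were not called, with log2 fold changes of -0.17 to 0.17. Markers of other cells differed between the supernatants too, beside 41.6% of all genes called. The 4 genes of the oligodendrocyte list were all called higher. They summed to 1084 to 1107 CPM in the P60 supernatants and 647 to 743 CPM in the P12 supernatants. Tac2, Tacr3 and Rax were also called higher, at log2 fold changes of 1.29, 0.51 and 1.77. The 3 ventromedial genes were called lower, at -0.80 to -0.43. So were Gja1, Slc1a3, Foxj1, Vim, Otp, the endothelial gene Cldn5 and the pituitary gene Tbx19, at -1.49 to -0.28. Of the POMC list, Pomc was called higher, at 2.01, and Isl1, Nkx2-1, Prdm12 and Six6 lower, at -0.67 to -0.30. The part of these markers in the results for Cartpt and Cck was not tested. Gal was called between the pull-downs and not between the supernatants, and the interaction contrast above is the test of that difference.

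Levels of different genes were compared per kilobase of exon (RPKM, from the exonic lengths above). In the P60 pull-downs the order was Pomc, Cartpt and Gal, at means of 2558, 765 and 129 RPKM, and each of these 3 stood above the next in all libraries with no overlap of the ranges. Below them came Penk at 15.5, Cck at 10.7, Adcyap1 at 9.38, Pdyn at 8.20, Tac1 at 4.76 and Pnoc at 4.24 RPKM, and each of these overlapped its neighbours in that order. Pdyn was thus called 4.73-fold enriched while its level per length stayed near those of genes that were not enriched. In the P60 supernatants Cartpt led at 37.8 RPKM, then Penk at 28.6, Gal at 25.1 and Cck at 23.4 RPKM, the last 3 overlapping one another in turn with Pomc at 26.5 RPKM between them. In the P12 pull-downs the order began with Pomc at 28.7, Cartpt at 12.7, Penk at 11.5 and Gal at 9.88 RPKM, and each of these overlapped the next. Pdyn had the lowest mean of the 8 in the other 3 groups, at 1.88 RPKM in the P60 supernatants, 1.65 in the P12 pull-downs and 2.05 in the P12 supernatants, and in the P12 pull-downs it overlapped Pnoc.

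As a share of the summed RPKM of the 8 genes, Cartpt made up 79.2% to 82.3% in the P60 pull-downs, against 22.4% to 30.1% in the P60 supernatants. Gal made up 13.1% to 14.1% in the P60 pull-downs, against 16.8% to 18.5% in the P60 supernatants. The Gal share was thus slightly lower in the pull-down although its own level was 6.00-fold higher, since Cartpt took most of the sum. At P12 the Cartpt share was 13.1% to 33.4% in the pull-downs and 13.6% to 18.7% in the supernatants, and Penk held 14.1% to 31.2% in the pull-downs and 22.8% to 27.3% in the supernatants. Shares are bound to sum to a whole, so these are descriptions with no test. In CPM, all 8 genes together reached 1089 to 1318 in the P60 pull-downs, 222 to 248 in the P60 supernatants, 64.2 to 106 in the P12 pull-downs and 174 to 197 in the P12 supernatants.

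**Figure D4:**
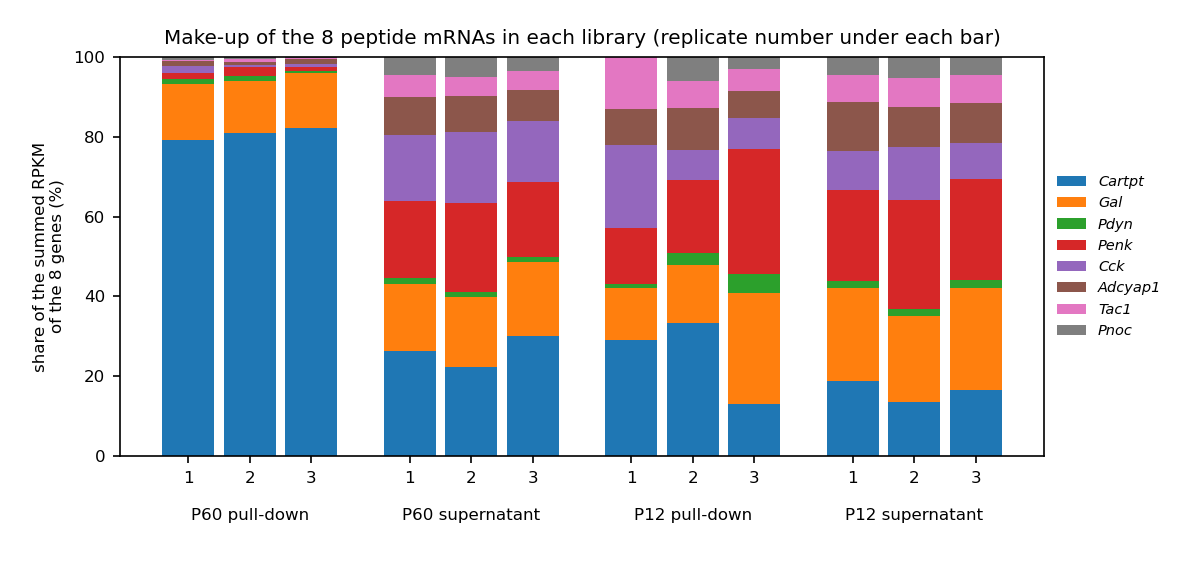
Share of each of the 8 genes in their summed RPKM (percent), one bar per library, with the replicate number under each bar and the 4 groups side by side. Cartpt fills 79.2% to 82.3% of the bars of the P60 pull-down and at most 33.4% of any bar in the other 3 groups.

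The genes whose profile over the 12 libraries lay nearest to each of the 8 were found by the root mean square difference of log2 CPM after centring each gene on its own mean, among 15311 genes. For Cartpt, LOC433944, Prdm12 and D14Ertd668e came nearest at 1.00, 1.01 and 1.07. These were the largest distances among the 8 genes, but the standard deviation of Cartpt itself, at 2.49, was also the largest. Tac1, for comparison, lay at 0.20 from its nearest gene, beside a standard deviation of 0.43. Prdm12, a transcription factor gene used by POMC neurons, had 59.8 to 116 CPM in the P60 pull-downs and 4.33 to 5.88 CPM in the P60 supernatants. At P12 its order was the reverse, with 0.317 to 3.22 CPM in the pull-downs and 6.55 to 8.02 CPM in the supernatants. The P12 log2 fold change of Prdm12 was -2.60 ± 1.41 (SE, edgeR adjusted p = 0.355), not called, and its lowest pull-down value rests on 2 counts. Gal lay nearest to Cd24a, Npy1r and Hspb8 at 0.44, 0.51 and 0.56. Pdyn lay nearest to Rspo1, Gch1 and Cd24a at 0.40, 0.50 and 0.51, so Gal and Pdyn share Cd24a. The 3 neighbours of Penk were Srsf11, Med19 and Nlrp10, those of Pnoc Chchd6, Ppapdc3 and 9230110C19Rik, those of Tac1 Smcr7l, Mpp3 and Ykt6, those of Adcyap1 Dhdds, Rab36 and Lmbr1, and those of Cck Wdr78, Tasp1 and Rad51l3. The libraries share age, fraction and depth across all genes, so likeness of this kind is a description with no test.

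Receptors of the peptides other than CART were examined as a list of 13 genes: Galr1, Galr2 and Galr3 for galanin, Oprk1, Oprd1, Oprm1 and Oprl1 for the opioid peptides and nociceptin, Tacr1 for substance P, Adcyap1r1, Vipr1 and Vipr2 for PACAP, and Cckar and Cckbr for cholecystokinin. None was called by edgeR between the fractions at P60, where 1 was higher and 2 were lower at an unadjusted p under 0.05 and DESeq2 called 2 lower. At P12 none was called by edgeR, none at an unadjusted p under 0.05 and none by DESeq2. Their median log2 fold change was -0.34 at P60, beside -0.10 over all genes, and -1.35 at P12, beside -0.27. In the P60 supernatants against the P12 supernatants, Galr1, Galr2, Tacr1 and Cckar were lower (log2 fold changes -0.53, -0.94, -0.42 and -0.64; edgeR adjusted p = 0.0137, 0.0376, 0.0436 and 0.00868), beside 20.8% of all genes called lower. Each of these 4 calls was lost when at least 1 of the 6 supernatants was left out, and in the fit over all 12 libraries. Oprl1, the nociceptin receptor, averaged 78.5 ± 17.9 CPM in the P60 pull-downs and 65.7 ± 1.45 CPM in the P60 supernatants (SD, n = 3 each), and was not called.

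Enzymes that process these precursors, with the Pcsk2 chaperone gene Scg5 and the inhibitor gene Pcsk1n, were a list of 8 genes. At P60, Pcsk1, which cuts many peptide precursors, Pcsk1n, which encodes a precursor that inhibits it, and Ctsl, the protease cathepsin L, were higher in the pull-down (log2 fold changes 0.93 ± 0.26, 0.63 ± 0.14 and 0.76 ± 0.23 SE, edgeR adjusted p = 0.0149, 0.000961 and 0.0226). The other 5, Pcsk2, Cpe, Pam, Scg5 and Furin, were not called, and the median of the list was 0.28. All 3 calls were lost without replicate 3. At P12, 0 of 8 were called by edgeR, with 1 higher at an unadjusted p under 0.05 and 1 higher by DESeq2. Between the pull-downs of the ages, Pam, which amidates peptides, and Pcsk1n were higher at P60, beside 1.89% of all genes. Their log2 fold changes were 1.03 ± 0.25 and 1.11 ± 0.19 (SE, edgeR adjusted p = 0.0256 and 0.00283). Pam missed the threshold when any one of the P60 pull-downs was left out. Pcsk1 was at 1.75 ± 0.54 (SE, edgeR adjusted p = 0.0779), and DESeq2 called 3 of the list higher. In the interaction contrast 0 of 8 were called by edgeR and 0 by DESeq2, with 4 higher at an unadjusted p under 0.05. Between the supernatants, Pam, Pcsk1, Pcsk1n, Pcsk2 and Scg5 were higher at P60, 5 of 8 beside 20.9% of all genes.

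Precursors of 22 other hypothalamic peptides were taken as a list. At P60, 17 were tested and none was called higher by edgeR, at an unadjusted p under 0.05 or by DESeq2. The highest fitted value was that of Nms, the neuromedin S precursor gene, named here after its values were seen. Nms had 1.09 to 2.97 CPM in the P60 pull-downs, against 0 to 0.268 CPM in the P60 supernatants, groups that did not overlap, with a log2 fold change of 3.69 ± 1.96 (SE, edgeR adjusted p = 0.26). Pmch, the precursor of melanin-concentrating hormone in the lateral hypothalamus, and Sst, that of somatostatin, were lower in the pull-down, by log2 fold changes of -0.76 ± 0.20 and -0.62 ± 0.18 (SE, edgeR adjusted p = 0.00973 and 0.0139). Both calls were lost without replicate 3. Sst had 47.3 to 55.3 CPM in the P60 pull-downs and 91.7 to 96.4 CPM in the P60 supernatants. At P12, 19 were tested and 0 were called by edgeR, with 2 lower at an unadjusted p under 0.05 and 1 lower by DESeq2. In the supernatants, Hcrt, Pmch and Tac2 were higher at P60 and Avp, Npvf, Nts, Prok2, Trh and Ucn3 were lower, 9 of the 18 tested beside 41.6% of all genes.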

How the data were processed

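TRAP libraries of 4 groups (age and fraction, from the sample titles) with 3 replicates each were analysed. Per the labels, ribosomal RNA was depleted and libraries were made with a stranded total RNA kit, although the labels also name the molecule as polyA RNA. The authors ran TopHat2 2.0.13 with Bowtie2 2.2.1 to align single-end reads (assembly mm10), then HTSeq to count them per gene. The strand setting is not given in the sources used here, so a gene's count may hold reads of a gene that overlaps it on either strand. The deposited values are raw counts, with no normalization by the authors. Each of the 12 single-sample files held the same counts as its column of the whole table. Libraries of a group were compared with each other by the chi-square of their counts over its degrees of freedom, which was 9.46 to 89.0, so none was counted as a repeat.

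Tests used edgeR 4.0.16 in R 4.3.3 on all genes: TMM scaling, filterByExpr by group, quasi-likelihood F-test, Benjamini-Hochberg adjustment over all genes tested, with a gene called at an adjusted p under 0.05. The grouping given to filterByExpr was set after a first look at the fits, and the other grouping is among the alternatives. Pull-down and supernatant of the same number were taken as a pair, after the study's paired model, and the number entered the P60, P12 and interaction fits as a block. The labels do not say that the number marks a shared lysate, and deviations of same-numbered libraries correlated by only 0.00256 to 0.0371 at P60 and 0.0126 to 0.0379 at P12. Ages were compared without a block. CPM are counts over the library total. RPKM use exonic lengths from GENCODE vM21, found for 98.4% of genes. Positions and promoter windows are from RefSeq tables of GRCm38.p6. No source says that the replicates are separate animals, beyond that the experiments were independent, so p-values measure the spread between these samples. The script was tested on simulated data. Alternatives were library size alone, DESeq2 1.42.0, no filter, a correction for gene length, the block left out or added, a fit over all 12 libraries, and leaving out each replicate. The members, gene lists and tests were chosen with earlier results of these data known. The text names all 8 genes, list members that passed the test, and the 3 nearest profiles. Prdm12 values, Oprl1 values and the cell type lists were added to describe these, Oprl1 after its values were seen. Markers of other cell types are named where called, and their calls were rechecked under the same alternatives. The oligodendrocyte list is given for 4 genes, and a further gene of it is not reported here.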

Additional observations from a re-analysis of the deposited data

Results flagged for a closer look

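Enrichment in the pull-down differed between the ages for 2 of the 8 genes by the interaction test. Across all 15311 genes tested, 0.438% were called more enriched at P60 and 0.686% less. Pomc and GFP were called more enriched at P60 too, by 4.80 and 2.08 on the log2 scale. Cartpt was more enriched at P60 than at P12 by 4.75 on the log2 scale, with log2 fold changes of 4.58 at P60 and -0.23 at P12. Gal was more enriched at P60 than at P12 by 3.69, with log2 fold changes of 2.59 at P60 and -1.17 at P12. With the correction for gene length the Gal difference was 2.82 and its P12 value -0.12. For both genes all 3 pairs were higher in the pull-down at P60, and at P12 Cartpt was higher in 1 of 3 pairs and Gal in 0 of 3. Groups of 3 are too small for a search for single libraries that stand apart.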

How the results depend on the processing

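Cartpt and Gal were called at P60, in the interaction and between the pull-downs under every alternative run, and Cartpt between the supernatants likewise. At P12, members called were 2 with library size alone and 3 in the fit over all 12 libraries, in place of 0. At P60 they were 3 with no replicate block, 2 in the fit over all 12 libraries, 4 with DESeq2 and 4 with the length correction, where Penk was lost, and 3 to 4 when a replicate was left out, in place of 5. Between the supernatants they were 1 in the fit over all 12 libraries, in place of 2. The replicate block changed no other call of the 8 genes, but the P12 call of Pomc and the P60 calls of Ctsl and Pmch were lost without it, and that of Ucn3 between the supernatants was lost with it. Small adjusted p also depended on the block where a call stayed. For Prdm12 at P60 the edgeR adjusted p was 3.4e-16 with it and 3.2e-05 without it. Scaling by library size alone moved the median log2 fold change of all genes to -0.61 at P12, -0.32 at P60, 0.20 in the interaction and 0.18 between pull-downs, and changes are best read relative to it. Nearest profiles, whose alternatives were chosen after seeing the data, kept 1 of 3 genes for Cartpt with a prior count of 0.5.

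Signs changed only for values that were not called. At P12, Cartpt was 0.61, Pdyn 0.072 and Cck 0.061 with the length correction, Pdyn was 0.071 with no replicate block, and with a replicate left out Cartpt ranged over -0.71 to 0.14 and Pdyn over -0.89 to 0.39. At P60, Adcyap1 ranged over -0.44 to 0.0073. With the length correction, Penk was -0.27 and Tac1 -0.16 in the interaction, -0.16 and -0.081 between the pull-downs, and Penk -0.011 between the supernatants. Tac1 was -0.0031 between the pull-downs with a replicate block. With a replicate left out, Penk ranged over -0.024 to 0.77 and Tac1 over -0.40 to 0.43 in the interaction, Penk over -0.11 to 0.79 and Tac1 over -0.36 to 0.36 between the pull-downs, and Gal over -0.19 to 0.058 and Penk over -0.12 to 0.11 between the supernatants.

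Counts over all genes moved more. At P12, 289 genes lower became 567 with DESeq2, 167 with the length correction, 472 with no replicate block, 657 in the fit over all 12 libraries and 1390 with library size alone, which gave 534 higher in place of 933. At P60, 1027 higher and 655 lower became 614 and 1790 with library size alone, 610 and 242 in the fit over all 12 libraries, and ranged over 563 to 1154 and 275 to 683 when a replicate was left out. In the interaction, 67 higher and 105 lower became 115 and 65 with library size alone, 223 and 226 with DESeq2, and 161 and 202 with no filter, higher calls were 36 with the length correction, and leaving out a replicate gave 22 to 151 and 42 to 135. Between the pull-downs, 256 higher and 422 lower became 445 and 264 with library size alone, 507 and 678 with DESeq2, 445 and 653 with no filter, and 1292 and 1469 in the fit over all 12 libraries, and ranged over 86 to 353 and 161 to 463 when a library was left out. Between the supernatants, 3182 and 3168 became 303 and 293 in the fit over all 12 libraries. Filtering by the design matrix, added after the first fits were seen, changed no call of the 8 genes. The causes of these shifts were not tested. Depth limits Pnoc and Pdyn most, at 0 and 7 counts in the shallowest P12 pull-down.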
